A study of Mus musculus with 3 samples.

Results

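*Upk3a*-positive luminal mammary epithelial cells were a small population of the stromal vascular fraction (SVF) of mouse inguinal fat, which surrounds the inguinal mammary gland. Of 31905 cells in 3 single-cell RNA-sequencing libraries, 516 met the rule for this population, with 166 in the wild-type library, 282 in that of *Mgp*-KO mice and 68 in that of *Pd*-KO mice. A barcode was kept as a cell when it held at least 2000 unique molecular identifiers (UMIs, counted RNA molecules) with at most 10% of them in mitochondrial genes. Of these cells, the population had at least 1 UMI of *Epcam*, 3 of *Krt8*, 3 of *Krt18* and 1 of *Upk3a*, none of *Pdgfra* and at most 1 of *Krt14*, so the cells were chosen by the measured UMIs of these 6 genes, whose levels are given as description only. Cells that passed the same epithelial limits without an *Upk3a* UMI, 81, 217 and 31 per library, are called *Upk3a*-negative luminal cells here and were the closest comparison. Values per library are given in this order, wild-type first.

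The study asked how matrix Gla protein (MGP), an extracellular matrix protein that binds bone morphogenetic proteins, affects adipose progenitor cells. Each library was 1 pool of mice of both sexes aged 4 weeks, from 12 wild-type mice, 13 *Mgp*-KO mice with global *Mgp* deletion and 11 *Pd*-KO mice, in which Cre recombinase driven by the *Pdgfra* promoter deletes *Mgp*. *Pdgfra* marks stromal and progenitor cells, and the epithelial cells described here were chosen to lack it. Floating adipocytes and CD45-positive leukocytes were removed before sequencing. With 1 library per genotype, genotype cannot be told apart from pool, library or sex ratio, and no test between genotypes was possible.

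The 3 libraries were not equally deep. They held 184102026, 93212243 and 83942865 UMIs in all, and the *Upk3a*-positive cells had medians of 22544.5, 9401.5 and 11286 UMIs and 4382, 3011.5 and 3567.5 genes. *Upk3a*-negative luminal cells had medians of 17018, 7515 and 7161 UMIs. The lowest totals of *Upk3a*-positive cells were 3058, 3200 and 2132 UMIs, and none lay at the limit of 2000. The wild-type library stood apart in a further way: its file header names version 4 of Cell Ranger and those of both knockouts name version 7.1.0. Levels are given as UMIs per 1000000 UMIs (CPM) over the summed UMIs of a set of cells, and intervals are 95% intervals for counting error only. No barcode of an *Upk3a*-positive cell was shared between libraries.

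*Mgp* followed the library labels. In *Pdgfra*-positive, *Epcam*-negative stromal cells it reached 449, 0.467 and 1.34 CPM. In the *Upk3a*-positive cells it was found at 20.7, 0.329 and 6.23 CPM, from 83, 1 and 5 UMIs. RNA outside cells, taken from barcodes with 10 to 100 UMIs, held *Mgp* at 359, 1.27 and 6.28 CPM, from 413, 1 and 21 UMIs. The level in *Upk3a*-positive cells was the lower one in wild-type, and the UMIs of the knockout libraries are too few for an order.

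The mammary gland has an inner luminal and an outer basal, contractile epithelial layer. Luminal cells are of a hormone-sensing kind, which carries receptors for estrogen, progesterone and prolactin and passes these signals to its neighbours through ligands such as amphiregulin (*Areg*), and a secretory kind, which carries *Elf5* and *Kit* and gives rise to milk-producing cells. Uroplakins are membrane proteins best known from the lining of the bladder, where uroplakin 3a (*Upk3a*) is a part of the surface plaques.

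*Upk3a* (ENSMUSG00000022435) lies on chromosome 15, from 85017141 to 85022547 on the plus strand of GRCm38. Its promoter window, 250 bases before to 50 after the RefSeq start (RefSeq, GRCm38.p6, chr15:85016891-85017190, plus strand), is shown because this gene chose the cells. Capitals mark the single match to the GATA motif AGATAA, read here on the opposite strand. GATA3 is the luminal member of that factor family and *Gata3* was found in the cells at 384, 332 and 537 CPM. It was also present in wild-type *Upk3a*-negative luminal cells, at 355 CPM, and was not called between the *Upk3a*-positive and *Upk3a*-negative luminal cells.
Upk3a: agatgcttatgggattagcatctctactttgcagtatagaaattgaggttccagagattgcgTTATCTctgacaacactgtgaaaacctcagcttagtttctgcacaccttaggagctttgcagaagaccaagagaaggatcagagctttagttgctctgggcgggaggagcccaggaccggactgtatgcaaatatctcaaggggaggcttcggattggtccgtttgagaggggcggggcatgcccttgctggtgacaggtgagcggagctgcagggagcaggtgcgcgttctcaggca
Of 32851 RefSeq promoter windows of this length, 11.2% hold that motif on either strand. The same window held no match to the forkhead motif TGTTTAC, the STAT motif TTCNNNGAA or the palindromic estrogen response element, which 3.65%, 8.30% and 0.0700% of windows hold. Such a match is a description of the letters and not a binding site.

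*Upk3a* itself was far from uniform among the cells it chose. The median cell held 46.5, 15.5 and 15 *Upk3a* UMIs, the quartiles ran from 13.25, 4 and 6 to 124.5, 42.75 and 39.25, and the highest cell held 336, 203 and 137. At least 10 UMIs were present in 78.3, 60.99 and 64.7% of the cells. The summed level was 3025, 2433 and 2136 CPM, against 42.6, 224 and 21.2 CPM in free RNA. An *Upk3a* UMI was also found in 6.94%, 0.552% and 0.226% of stromal cells, whose median depths were 14957, 7336.5 and 9842 UMIs, and in 3.22%, 2.07% and 0.504% of endothelial cells. At the median depth of the *Upk3a*-positive cells, free RNA alone would hold 0.961, 2.11 and 0.240 *Upk3a* UMIs. By *Upk3a* alone, the 17, 37 and 4 cells with 1 UMI cannot be told apart from cells that carry free RNA. The same holds for the 19 *Mgp*-KO cells with 2 UMIs.

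Just inside the threshold, cells with 1 *Upk3a* UMI had *Cited1* at 870.0, 2002 and 1197 CPM, and just outside it, cells with none had 666, 685 and 395 CPM. The secretory marker *Wfdc18* ran the other way, with 759.9, 78.6 and 136 CPM in cells with 1 UMI and 2768, 1788 and 2126 CPM in cells with none. *Areg* also lay lower just inside, at 967, 934 and 27.2 against 1302, 1465 and 486 CPM. *Ly6d* was 1246, 2818 and 2286 against 2188, 1643 and 1337 CPM, *Foxa1* 145, 239 and 408 against 147, 118 and 161 CPM and the secretory gene *Elf5* 137, 9.83 and 0 against 126, 134 and 95.8 CPM. In both knockout libraries these 3 genes thus lay on the hormone-sensing side in cells with 1 UMI, and in the wild-type one they did not. Among cells without a *Pdgfra* UMI, the keratin limits cut little. *Krt8* had medians of 63, 24 and 30 UMIs in the cells, 0, 6 and 0 of them stood at the limit of 3, and 5, 4 and 0 *Upk3a*-positive, *Epcam*-positive cells failed on keratins alone. Another 103, 43 and 16 were left out with a *Pdgfra* UMI, and how many of these also failed the keratin limits was not counted.

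The cells were luminal by the other markers named for them. *Krt19*, a keratin of luminal and other simple epithelia, reached 5605, 3940.1 and 4913 CPM, and *Ly6d*, a surface protein, 2331, 2135 and 1879 CPM. *Prlr*, the prolactin receptor, reached 1492, 2263 and 2715 CPM against 38.9, 21.9 and 46.2 CPM in stromal cells. *Upk3a*-negative luminal cells held it at 1614, 2264 and 3099 CPM, not below the *Upk3a*-positive cells in any library, which is given with no test. With every cell thinned to 2000 UMIs, *Prlr* was detected in 87.3, 92.9 and 97.1% of the cells and 5.98, 3.81 and 7.99% of stromal cells. *Areg*, the epidermal growth factor family ligand through which estrogen acts on neighbouring cells, reached 2172, 1772 and 1188 CPM. It was the most uneven of these 4, with a coefficient of variation between cells of 1.33, 1.53 and 1.70, against 0.735, 0.662 and 0.598 for *Prlr*, and was detected in 63.3, 53.9 and 47.1% of thinned cells and 0.568, 0.114 and 0.0206% of thinned stromal cells. *Cited1*, a transcriptional coactivator that takes part in estrogen-dependent duct growth, stood at 2313, 2013 and 1639.8 CPM.

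Markers of the other cell types were low. The summed level of 12 basal genes was 162, 80.5 and 304 CPM, led by the actin gene *Acta2*, and the basal keratin *Krt5* had no UMI in the wild-type and *Mgp*-KO libraries. The 18 secretory genes summed to 802, 399.6 and 350.4 CPM, and the milk genes *Csn2*, *Csn1s2a*, *Lalba* and *Wap* had no UMI in any library, which allows up to 0.747, 0.986 and 3.74 CPM each (3 counts per library). The 7 mesothelial genes, which include the related uroplakin *Upk3b*, summed to 2.49, 2.96 and 1.25 CPM with *Upk3b*, *Msln*, *Wt1* and *Lrrn4* at 0. The 8 leukocyte genes summed to 7.96, 0.986 and 3.74 CPM, with *Ptprc*, which encodes CD45, at 0.

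RNA of fibroblasts was present at a low level. The 9 fibroblast and progenitor genes summed to 2779, 1123 and 691 CPM in *Upk3a*-positive cells, 68537, 60181 and 94572 CPM in stromal cells and 22262, 42332.5 and 88896.5 CPM in free RNA. Their most abundant gene was the collagen gene *Col3a1* at 1154, 427 and 266 CPM, and *Pdgfra* was at 0 by the rule. The 8 endothelial genes summed to 126, 24.3 and 34.9 CPM. At least 2 UMIs of *Dcn*, *Col3a1*, *Pecam1*, *Cdh5*, *Rgs5* and *Ptprc* together were held by 166, 179 and 57 of the cells, which are all of the wild-type cells. The part of free RNA and of doublets in this signal was not tested.

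*Upk3a*-positive cells made up 1.58% (1.35 to 1.84), 2.24% (1.99 to 2.52) and 0.771% (0.599 to 0.976) of all cells. Of *Epcam*-positive cells they made up 21.7% (18.8 to 24.8), 36.5% (33.1 to 39.99) and 40.7% (33.2 to 48.6), so the order of the libraries depended on the denominator. The *Mgp*-KO library had the highest share of all cells and the *Pd*-KO library the highest share of *Epcam*-positive cells, where the intervals of the 2 knockouts overlap. Of 765, 773 and 167 *Epcam*-positive cells, 247, 499 and 99 passed the keratin, *Krt14* and *Pdgfra* limits, so this denominator is not the epithelium alone. Among luminal cells of the gate, 67.2%, 56.5% and 68.7% carried *Upk3a*. A further 103, 43 and 16 *Upk3a*-positive, *Epcam*-positive cells held a *Pdgfra* UMI and were left out, most of them in the wild-type library. How many of these would have passed the keratin limits was not counted. The order of the libraries was not tested with these cells included. A smaller number of cells and less RNA per cell reaching the thresholds cannot be told apart in these shares.

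Most of the cells scored as female. An *Xist* UMI without a UMI of the Y-linked genes *Ddx3y*, *Uty*, *Kdm5d* and *Eif2s3y* was present in 80.1% (73.2 to 85.9), 91.8% (88.01 to 94.8) and 73.5% (61.4 to 83.5) of *Upk3a*-positive cells, against 34.4%, 59.9% and 32.2% of all other cells. The intervals lie above the shares of other cells in each library. A Y-linked UMI without *Xist* was found in 7, 11 and 10 cells, and *Xist* together with a Y-linked UMI in 16, 5 and 4 cells. The latter were 9.64%, 1.77% and 5.88% of *Upk3a*-positive and 7.41%, 1.92% and 3.42% of all other cells. The part of free RNA and of doublets in these scores was not tested. Over female-scored cells alone, *Upk3a*-positive cells made up 3.61% (3.03 to 4.26), 3.40% (3.003 to 3.83) and 1.74% (1.30 to 2.29), and over male-scored cells 0.190%, 0.595% and 0.287%. With cells thinned to 2000 UMIs the female-scored shares were 71.7%, 69.5% and 63.2%, against 23.6%, 41.5% and 22.1% of other cells. *Upk3a*-negative luminal cells scored female in 62.96% (51.5 to 73.4), 88.02% (82.9 to 92.02) and 80.6% (62.5 to 92.5), and these intervals overlap those of the *Upk3a*-positive cells in all 3 libraries, though only just in the wild-type one.

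Hormone receptor genes were led by *Prlr*, which alone made up most of the summed level of 1866, 3218 and 4121 CPM over 21 receptor genes. The progesterone receptor gene *Pgr* stood at 110.3, 214 and 325 CPM in *Upk3a*-positive and 109.9, 244 and 322 CPM in *Upk3a*-negative luminal cells, levels that followed each other closely in each library. The estrogen receptor gene *Esr1* stood at 67.7, 322 and 486 CPM, with 58.7, 219.7 and 433 CPM in *Upk3a*-negative luminal cells and 73.00, 249 and 439 CPM in stromal cells, so it was not higher in the epithelial cells than in stroma of the wild-type library. *Esr2* and the calcitonin receptor gene *Calcr* had no UMI in the cells, under the same limits. After thinning, 4, 5 and 8 of the 21 genes were detected in at least 10% of the cells, and 14, 13 and 14 at full depth.

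Between *Upk3a*-positive and *Upk3a*-negative luminal cells, 13 receptor genes other than *Prlr* were tested. By edgeR's quasi-likelihood test with Benjamini-Hochberg adjustment over all genes tested, the mineralocorticoid receptor gene *Nr3c2* was higher (0.67 ± 0.15 log2 fold change ± SE, adjusted p = 0.01, n = 3 libraries), with 10.2, 165 and 231 against 4.72, 103 and 172 CPM. Lower were *Igf1r*, the receptor for insulin-like growth factor 1 (-2.17 ± 0.28), the growth hormone receptor gene *Ghr* (-1.73 ± 0.24) and the glucocorticoid receptor gene *Nr3c1* (-1.20 ± 0.24), with adjusted p = 2.9e-04, 5.2e-04 and 0.0067 in the same edgeR fit. *Igf1r* was 8.96, 11.8 and 11.2 CPM against 24.3, 54.5 and 126 CPM, lower in each library. *Pgr* (-0.05 ± 0.10, adjusted p = 0.85) and *Esr1* (0.36 ± 0.12, adjusted p = 0.07) did not pass the edgeR threshold of 0.05. Thus 1 of the 13 was higher and 3 were lower, where 3.98% of all genes were higher and 6.14% lower. The median over the 13 genes was -0.14 on the log2 scale, against -0.01 over all genes tested.

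**Figure D1:**
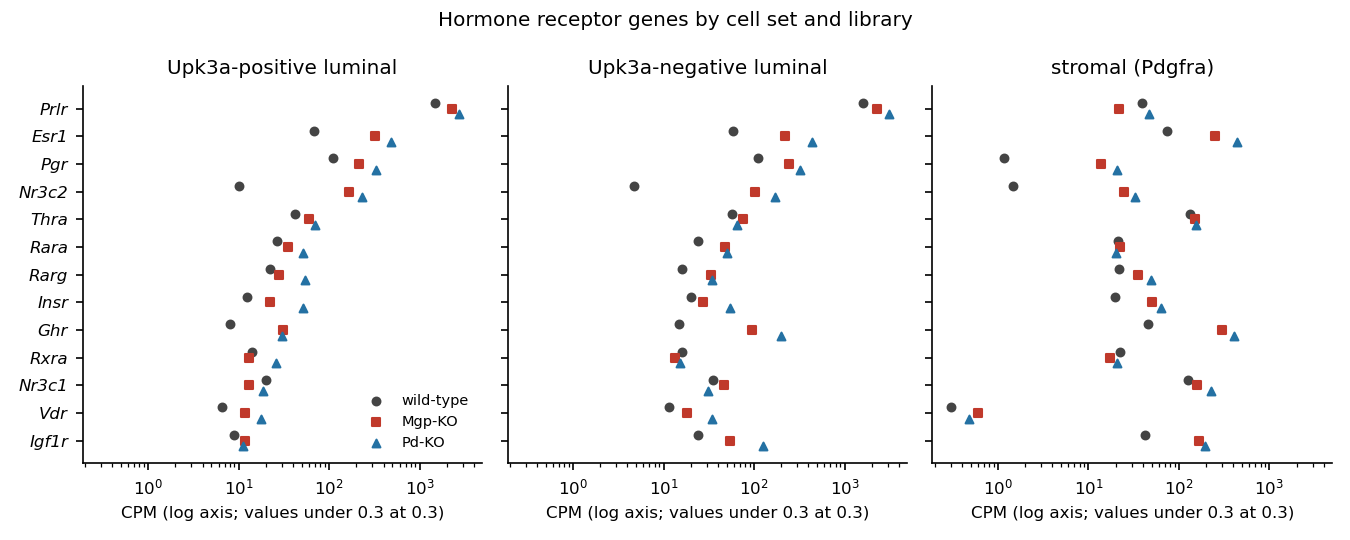
Level in CPM (log axis, values under 0.3 drawn at 0.3) of 13 hormone receptor genes in *Upk3a*-positive luminal, *Upk3a*-negative luminal and stromal cells, 1 symbol per library. *Prlr* leads in both kinds of luminal cell, *Pgr* and *Esr1* lie close between them, and *Igf1r* and *Ghr* lie lower in *Upk3a*-positive cells.

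Across all genes, *Upk3a*-positive luminal cells had more *Cited1*, *Pir*, *Il33*, *Wnt5a* and metallothionein RNA than *Upk3a*-negative ones, by 1.54 to 3.26 on the log2 scale, and less of the secretory genes, with *Wfdc18* at -4.06. Of 9788 genes tested on UMIs summed per library and kind of cell, with the library as a block, 390 were higher (3.98%) and 601 lower (6.14%) in *Upk3a*-positive cells at an adjusted p under 0.05 by edgeR's quasi-likelihood test. The sign was the same in all 3 libraries for 378 and 593 of them. Leaving out each library in turn kept 150 of the higher and 331 of the lower calls throughout, without the *Mgp*-KO library 219 were higher, and without the block 10 higher and 63 lower calls were made. The 390 include *Krt19*, *Areg* and *Ly6d*, which were named as markers of the cells and are given as values only: *Krt19* was 3366, 2938 and 3183 CPM, *Areg* 1302, 1465 and 486 CPM and *Ly6d* 2188, 1643 and 1337 CPM in *Upk3a*-negative cells.

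*Cited1* was found in 161, 272 and 65 of the *Upk3a*-positive cells. It was at 666, 685 and 395 CPM in *Upk3a*-negative cells, against 2313, 2013 and 1639.8 CPM (1.79 ± 0.10 log2, adjusted p = 4.2e-07 by edgeR). *Foxa1*, a forkhead factor that opens chromatin for the estrogen receptor, was 199, 202 and 323 against 147, 118 and 161 CPM (0.71 ± 0.13, adjusted p = 0.0029 by edgeR), though in wild-type it was not above those *Upk3a*-negative cells whose hormone-sensing genes exceeded their secretory ones. These were the 2 higher genes of 10 tested hormone-sensing markers, and *Ly6a*, a surface protein also found on progenitors, was lower (-0.50 ± 0.09, adjusted p = 0.0036 by edgeR), with a list median of 0.24, beside 3.98% of all genes higher and 6.14% lower. *Upk2*, the only other uroplakin gene with enough UMIs, had 25.9, 14.1 and 26.2 against 35.7, 19.9 and 19.2 CPM and no call (-0.35 ± 0.23, adjusted p = 0.4 by edgeR).

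Secreted factors and metal-binding proteins were among the higher genes. *Wnt5a*, a ligand of the non-canonical Wnt pathway, was 129, 109.8 and 109.7 CPM against 37.8, 35.2 and 26.8 CPM (1.75 ± 0.15, adjusted p = 9.1e-06 by edgeR). *Il33*, which encodes an alarmin cytokine, was 191, 212 and 319 against 48.6, 46.9 and 95.8 CPM (2.03 ± 0.13, adjusted p = 9.2e-07 by edgeR). The metallothioneins *Mt1* and *Mt2*, small proteins that bind zinc and other metals, were both higher. *Mt1* was 2007, 2017 and 898 against 568, 886 and 295 CPM (1.54 ± 0.11) and *Mt2* 602, 478 and 354 against 169, 153 and 95.8 CPM (1.78 ± 0.11), with adjusted p = 3.0e-06 and 5.4e-07 by edgeR. Free RNA held *Mt1* at 5315, 1914 and 196 CPM and *Mt2* at 1010.2, 388 and 57.4 CPM, in wild-type above the level of the *Upk3a*-positive cells for both. The part of free RNA in the metallothionein levels was not tested. In each of these 4 genes, the lowest *Upk3a*-positive library lay above the highest *Upk3a*-negative one, for *Mt1* only by 898 against 886 CPM. The genes were named for a high ratio in every library, and how many of all genes do the same was not counted, so this is description only.

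*Mt1* and *Mt2* lie beside each other on chromosome 8 and were higher together, so their promoter windows are shown, from chr8:94178839-94179138 and chr8:94172368-94172667 on the plus strand of GRCm38.p6 (RefSeq). Capitals mark matches to the core of the metal response element, TGCNCNC, on either strand, the element through which zinc is known to act on these genes, and no match overlaps another.
Mt1: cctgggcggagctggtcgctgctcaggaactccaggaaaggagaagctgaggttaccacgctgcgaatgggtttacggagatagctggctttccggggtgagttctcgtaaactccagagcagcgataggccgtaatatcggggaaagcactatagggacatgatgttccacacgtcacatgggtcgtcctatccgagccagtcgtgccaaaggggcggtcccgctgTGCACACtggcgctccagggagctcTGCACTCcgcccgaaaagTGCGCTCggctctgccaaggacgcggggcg
Mt2: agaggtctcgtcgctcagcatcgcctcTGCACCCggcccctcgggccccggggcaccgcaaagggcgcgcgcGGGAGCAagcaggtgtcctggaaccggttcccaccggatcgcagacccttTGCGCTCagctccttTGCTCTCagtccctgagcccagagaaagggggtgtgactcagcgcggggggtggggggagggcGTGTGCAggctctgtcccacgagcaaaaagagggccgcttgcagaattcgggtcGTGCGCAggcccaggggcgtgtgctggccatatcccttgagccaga
The windows hold 3 and 6 matches to the looser pattern TGCNCNC. At least 1 match is present in 51.0% of all windows and at least 3 in 7.1%. The *Upk3a* window above holds 2, not marked there.

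The pirin gene *Pir*, which encodes a nuclear iron-binding protein, had a wide gap, with 238, 259 and 238 CPM against 16.2, 39.3 and 15.3 CPM (3.26 ± 0.20, adjusted p = 5.9e-07 by edgeR). *Gclm*, a subunit of the first enzyme of glutathione synthesis, was also higher (1.07 ± 0.11). *Dcpp3*, a secreted salivary-type protein, was 68.4, 77.2 and 36.2 CPM in *Upk3a*-positive cells and 0.674, 0 and 0 CPM in *Upk3a*-negative ones (adjusted p = 4.5e-07 by edgeR), so no size is given for a ratio to 0. It came from few cells, 11, 8 and 1 with a UMI, and the highest cell of each library held 39.6, 64.3 and 100% of its UMIs. *Dcpp3* has near-identical neighbours, *Dcpp1* and *Dcpp2*, between which reads can be split, and its level is uncertain for that reason. The fibrinogen chain gene *Fgb* was 1045, 1083 and 686 against 8.77, 193 and 188 CPM (3.34 ± 0.52, adjusted p = 0.0011 by edgeR). A *Fgb* UMI was present in 90, 159 and 36 *Upk3a*-positive and 7, 25 and 3 *Upk3a*-negative cells, the gap was widest in the wild-type library, and DESeq2 did not call it.

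The other 11 of the 20 highest genes by their weakest library were of several kinds. *Phgdh* (1.41) and *Gfpt2* (1.58) encode the entry enzymes of serine and of hexosamine synthesis. *Gfpt2* was 54.5, 123 and 122 CPM in *Upk3a*-positive cells, not above the 56.6, 244 and 148 CPM of free RNA and the 97.8, 364 and 193 CPM of stromal cells, and *Phgdh* was 83.1 CPM in wild-type *Upk3a*-positive cells and 113 CPM in free RNA there. *Crym* (2.17) binds thyroid hormone, *Grb14* (1.89) is an adaptor that restrains the insulin receptor, and *Tesc* (1.73) and *S100a14* (1.43) belong to calcium-binding families. *Itih2* (2.73), *Ccbe1* (2.28) and *Col8a1* (1.21) encode matrix or secreted proteins. *Sv2c* (3.75), a vesicle protein, and *Samd5* (1.82) are the last of them. *Pir* was found in 134, 196 and 44 of the *Upk3a*-positive cells, so the calls did not all rest on a few cells as that of *Dcpp3* did. Each of the 20 genes kept its call without any one library. Without *Mgp*-KO, *Pir* had 3.89 and *Samd5* 2.501, and *Fgb* had 2.30 without wild-type and 4.24 without *Mgp*-KO.

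**Figure D2:**
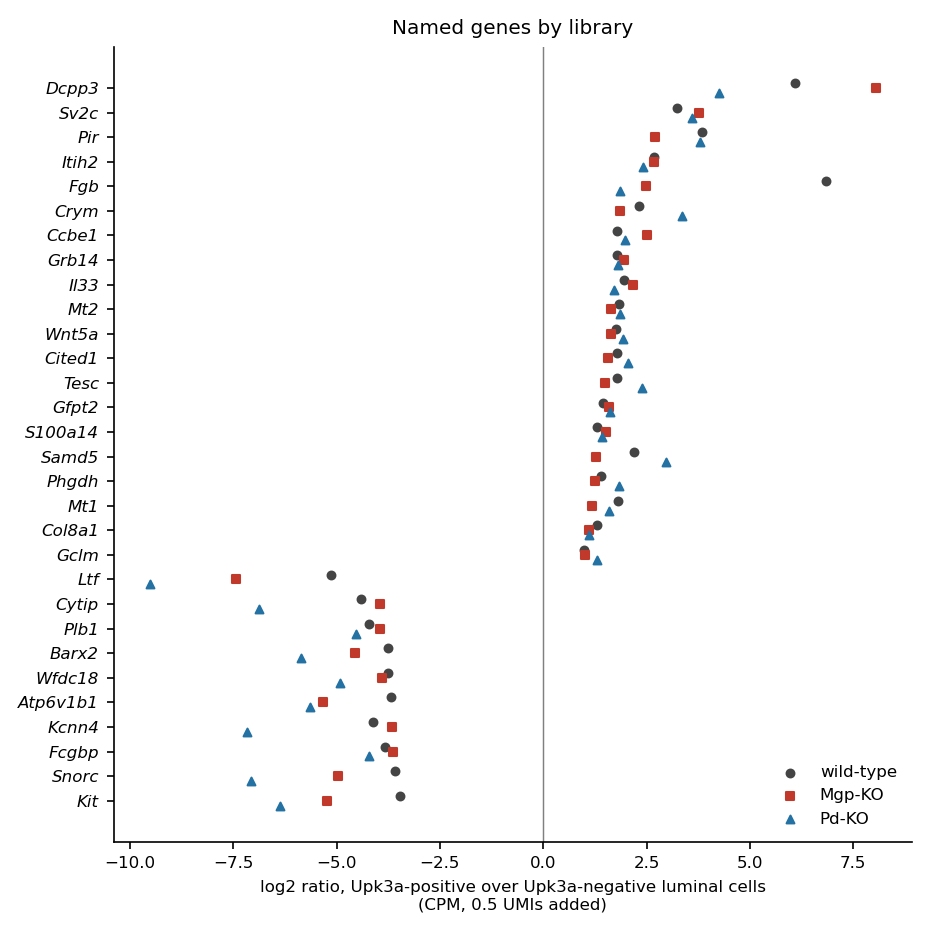
Log2 ratio of CPM in *Upk3a*-positive over *Upk3a*-negative luminal cells (0.5 UMIs added) for the 20 highest and 10 lowest genes, 1 symbol per library. Symbols of a gene lie on 1 side of 0 in all 3 libraries, which the choice of the genes required, and *Fgb* and *Dcpp3* spread most among the higher genes.

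Secretory luminal genes were lower. All 13 tested secretory markers were lower, with a list median of -3.41 log2, against 6.14% of all genes. *Wfdc18*, a secreted whey-acidic-type protein, was 204, 119 and 69.8 CPM against 2768, 1788 and 2126 CPM (-4.06 ± 0.16, adjusted p = 7.9e-08 by edgeR). *Kit*, the stem cell factor receptor, was 10.95, 2.30 and 1.25 against 123, 91.98 and 153 CPM (-4.22 ± 0.31), and *Elf5*, the factor that sets the secretory fate, was 18.7, 7.23 and 6.23 against 126, 134 and 95.8 CPM (-3.37 ± 0.24), with adjusted p = 2.8e-06 and 2.5e-06 by edgeR. The lactoferrin gene *Ltf* was 9.21, 0.329 and 0 against 329, 84.4 and 456 CPM. An *Elf5* or *Kit* UMI was found in 4.82%, 4.61% and 1.47% of *Upk3a*-positive and 49.4%, 42.4% and 41.9% of *Upk3a*-negative luminal cells. Others of the 10 lowest were *Barx2*, a homeobox factor, *Atp6v1b1*, a proton pump subunit, *Kcnn4*, a potassium channel, *Plb1*, *Cytip*, *Fcgbp* and *Snorc*, from -3.89 for *Fcgbp* to -4.56 for *Cytip* on the log2 scale. Without the wild-type library *Atp6v1b1* moved from -4.33 to -5.50, *Snorc* from -4.40 to -5.41 and *Kit* from -4.22 to -5.59. *Snorc* was 41.3, 12.2 and 3.74 against 495, 384 and 589.9 CPM.

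Counts of called signalling genes are to be read beside the 3.98% of all genes that were higher and the 6.14% that were lower. In the prolactin pathway 10 genes were tested, and *Socs3*, a feedback inhibitor of cytokine receptors, was higher with 433, 780.2 and 504 against 153, 497 and 237 CPM (1.07 ± 0.14, adjusted p = 2.7e-04 by edgeR), while *Elf5* was lower. Of 10 epidermal growth factor family genes tested beside *Areg*, which was set aside as a marker of the cells, none was higher and 4 were lower, *Egfr*, *Erbb3*, *Erbb4* and *Nrg4*. Of 10 genes of the bone morphogenetic protein pathway, whose ligands MGP binds, *Id3* was higher (0.85 ± 0.10) and *Id2* lower (-1.93 ± 0.15), with adjusted p = 1.6e-04 and 4.3e-06 by edgeR. Of 11 transforming growth factor beta genes 1 was higher and 3 lower, of 13 Wnt genes 1 was higher and 4 lower, and of 8 Notch genes 1 was higher and 2 lower. Medians of these 4 pathway lists and of the epidermal growth factor list lay between -0.26 and -0.15.

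Among 10 estrogen and progesterone target genes, *Cited1* and *Stc2* (0.98 ± 0.11, adjusted p = 1.0e-04 by edgeR), which encodes a stanniocalcin, were higher and *Igfbp5*, an insulin-like growth factor binding protein, was lower (-2.55 ± 0.13, adjusted p = 3.6e-07 by edgeR). Of 21 epithelial transcription factors, *Foxa1*, *Sox9* and *Hes1* were higher and *Elf5*, *Ehf*, *Tfap2c* and *Sox10* lower, again beside 3.98% and 6.14% of all genes. None of 14 adhesion and junction genes was called at an adjusted p under 0.05 by edgeR.

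Cell cycle genes were higher in 6 of 17 tested, *Top2a*, *Cdk1*, *Mcm2*, *Mcm3*, *Mcm6* and *Tyms*, and lower in none, with a list median of 0.90, against 3.98% of all genes higher and 6.14% lower. The libraries differed in this. Their summed level was 1775, 1513 and 1626 CPM in *Upk3a*-positive and 1746, 818 and 682 CPM in *Upk3a*-negative cells, so the gap was present in both knockout libraries and the sums were close in the wild-type one. *Mki67*, a marker of dividing cells, was 89.1, 63.4 and 133 against 88.3, 25.8 and 7.66 CPM.

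Genes known to respond to tissue dissociation moved with the comparison. Of 12 tested, 7 were higher in *Upk3a*-positive cells (*Fos*, *Jun*, *Junb*, *Jund*, *Atf3*, *Ier2* and *Dnajb1*) and none lower, with a median of 0.54, where 3.98% of all genes were higher and 6.14% lower. Their summed level was 11513, 18270 and 10236.5 CPM in *Upk3a*-positive, 6659.8, 14026 and 7511 CPM in *Upk3a*-negative and 11545.5, 14057 and 4779.7 CPM in stromal cells. The part of dissociation in the other differences was not tested. Of 8 fibroblast genes only *Dcn* was called, and it was lower.

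The *Upk3a*-negative luminal cells held cells of both luminal kinds, and few *Upk3a*-positive cells were of the secretory kind. After thinning, the summed UMIs of 18 secretory genes exceeded those of 15 hormone-sensing genes in 40.7, 35.5 and 35.5% of them, against 3.01, 1.06 and 1.47% of *Upk3a*-positive cells. This split was made after the values were seen and is given with no test.

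**Figure D3:**
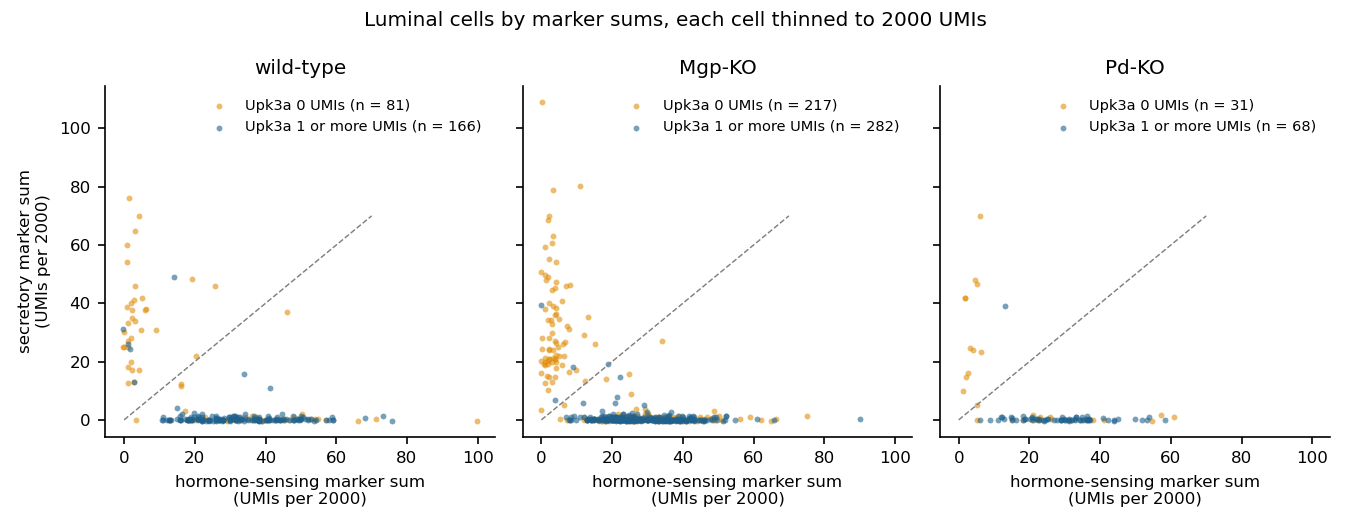
Each point is a luminal cell thinned to 2000 UMIs, by the summed UMIs of the hormone-sensing (x axis) and secretory (y axis) genes, 1 panel per library, with a dashed line of equal sums. Most blue *Upk3a*-positive cells lie near the x axis, with 5, 3 and 1 above the line, and most orange *Upk3a*-negative cells lie near either axis. Some cells of both kinds lie between the axes.

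In the *Upk3a*-negative cells in which the hormone-sensing sum was higher, 48, 140 and 19 cells, several genes outside these sums lay lower than in *Upk3a*-positive cells. *Pir* was 27.3, 57.5 and 16.5 CPM in them, *Il33* 88.2, 68.00 and 138 CPM, *Wnt5a* 62.1, 50.6 and 38.6 CPM and *Mt1* 841, 1066 and 408 CPM, each below the *Upk3a*-positive value of the same library. For several genes that were lower in *Upk3a*-positive cells the gap was narrower here. *Snorc* was 79.5, 30.5 and 16.5 against 41.3, 12.2 and 3.74 CPM in *Upk3a*-positive cells, *Barx2* 6.21, 5.23 and 0 against 4.23, 2.96 and 1.25 CPM, and *Kcnn4* 1.24, 4.36 and 5.52 against 5.48, 4.27 and 0 CPM, the last 2 from few UMIs and with no common order. *Plb1* kept its order in each library, at 103, 15.7 and 132 against 5.23, 1.64 and 3.74 CPM.

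Genes that were part of the sums did not all lie on one side. *Krt19* was 5292, 3774 and 4055 CPM in these cells, against 5605, 3940.1 and 4913 CPM in *Upk3a*-positive cells. *Cited1* was 1079, 979 and 568 CPM in these *Upk3a*-negative, hormone-sensing-type cells, below the *Upk3a*-positive cells of each library. *Prlr* was 2801, 3273 and 4364 CPM and *Pgr* 191, 353 and 452 CPM, both above the *Upk3a*-positive cells, and *Wnt4*, a ligand downstream of progesterone, was 358, 304 and 171 CPM against 171, 188 and 153 CPM. *Areg* was 2292, 2159.5 and 701 CPM, higher than in *Upk3a*-positive cells in 2 libraries and lower in *Pd*-KO. *Foxa1* was 256, 171 and 232 CPM against 199, 202 and 323 CPM, so it was lower in *Upk3a*-positive cells in the wild-type library alone, and *Ly6d* 3878, 2384 and 1870.1 against 2331, 2135 and 1879 CPM. These genes entered the split, which favours high values in the *Upk3a*-negative cells it selects.

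**Figure D4:**
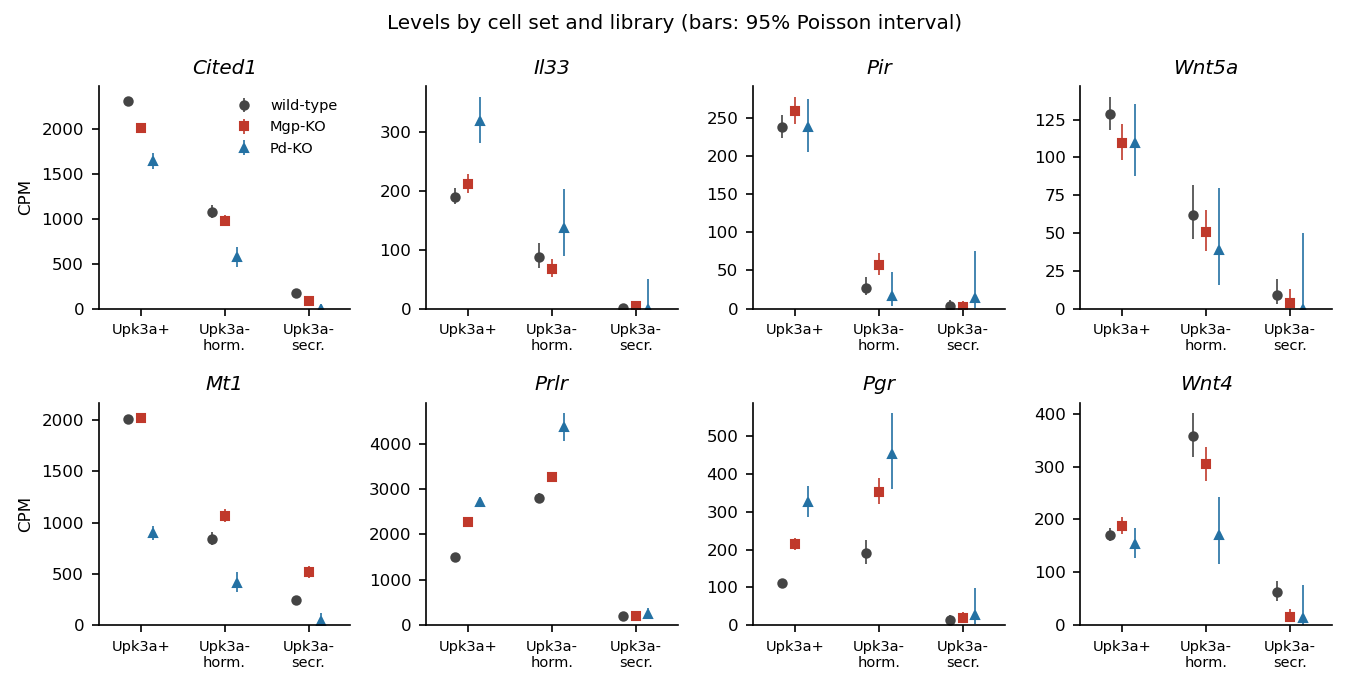
Level in CPM, with 95% Poisson intervals, of 8 genes in *Upk3a*-positive cells (Upk3a+) and in *Upk3a*-negative luminal cells whose hormone-sensing (horm.) or secretory (secr.) sum was higher, 1 symbol per library. *Cited1*, *Il33*, *Pir*, *Wnt5a* and *Mt1* are highest in *Upk3a*-positive cells, and *Prlr* and *Pgr* in *Upk3a*-negative cells of the hormone-sensing type.

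Against all 1016 other *Epcam*-positive cells without *Upk3a*, 491, 442 and 83 per library, the cells differed more widely. This comparison also carries the keratin, *Krt14* and *Pdgfra* limits of the rule, and of 11850 genes 1526 were higher (12.9%) and 2434 lower (20.5%) by edgeR's quasi-likelihood test. Without the *Mgp*-KO or the *Pd*-KO library 995 and 791 were higher, and without the block 264 were higher and 1348 lower. Of 10 hormone-sensing markers 8 were higher and 1 lower, with a median of 1.29. *Cited1* led them (3.01 ± 0.21) together with *Gata3*, *Foxa1*, *Spdef*, *Tbx3*, *Prom1*, *Wnt4* and *Pgr*. *Ptn*, which encodes the growth factor pleiotrophin, was 5199, 6805 and 7004 against 999.9, 1959 and 1699 CPM (2.09 ± 0.14, adjusted p = 1.3e-05 by edgeR). Others of the 20 highest that the closer comparison had not named were *Trpc6*, a cation channel (2.69), *Sult2b1*, a sulfotransferase (2.45), *Tspan1*, a tetraspanin (2.45), and *Dnajc12*, a co-chaperone (2.35).

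The counts of this comparison stand beside 12.9% of all genes higher and 20.5% lower. All 11 tested basal markers were lower in *Upk3a*-positive cells, with a median of -5.83 log2, among them the basal keratins *Krt5* and *Krt17* and the contractile gene *Cnn1*. The rule capped *Krt14* in the *Upk3a*-positive cells only, so lower basal markers follow from how the cells were chosen and are description only. All 8 tested fibroblast genes were also lower, with a median of -4.16, and 12 of 13 secretory markers. The limit on *Pdgfra* likewise held for the *Upk3a*-positive cells only, so the fibroblast result also follows from the choice of cells. Against *Upk3a*-negative luminal cells, which carry the same limit, 1 of 8 fibroblast genes was lower, with a median of -0.12. Of 16 adhesion genes 10 were higher, including *Cdh1*, *Cldn3*, *Cldn4* and *Cldn7*, and 2 were lower, *Muc1* and *Cldn1*. Cell cycle genes were higher in 14 of 17. Of 16 receptor genes *Nr3c2* and *Pgr* were higher and 9 were lower, including *Oxtr* and *Thra*, and the higher share of the receptors was near that of all genes. *Pgr* was 25.2, 141 and 181 CPM in the other *Epcam*-positive cells (1.20 ± 0.25, adjusted p = 0.0051 by edgeR). *Mgp* was among the lower genes of the bone morphogenetic protein pathway, at 339.6, 0 and 5.02 CPM in those cells. Beside the *Upk3a*-positive levels given above, the order held in the wild-type library alone. In both knockouts, where *Mgp* is deleted, the *Upk3a*-positive level was not the lower one. The limit on *Pdgfra* held for the *Upk3a*-positive cells only here too.

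Between genotypes, the *Upk3a*-positive cells of both knockout libraries had more RNA than wild-type ones of many genes that span a long stretch of the genome. Of 9300 genes that had 50 or more UMIs in all, 1215 (13.1%) were at least 2-fold higher and 195 (2.10%) lower in *Mgp*-KO compared with wild-type cells. Of the same genes, 2004 (21.5%) were at least 2-fold higher and 357 (3.84%) lower in *Pd*-KO cells. *Mgp*-KO over *Pd*-KO, 2 libraries whose headers name the same software, gave 264 higher (2.84%) and 427 lower (4.59%). The median ratio over all genes was 0.31 for *Pd*-KO over wild-type and -0.15 for *Mgp*-KO over *Pd*-KO on the log2 scale, and relative to it 1312 genes were higher and 594 lower in the first, and 345 higher and 250 lower in the second. These are descriptions of single libraries with no replicate check.

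Gene span divided these ratios. For the 1243 genes over 100 kb the median log2 ratio was 1.13 for *Mgp*-KO and 1.51 for *Pd*-KO over wild-type, and 55.03% and 70.7% of them were at least 2-fold higher. For the 4010 genes under 20 kb the medians were -0.10 and -0.06, with 1.67% and 3.79% at least 2-fold higher. Stromal cells of the same libraries had the same order, with medians of 1.22 and 1.45 over 100 kb. Of 1083 genes higher in both knockouts, 748 were also at least 2-fold higher in both in stromal cells. The part of the differing software versions, and of how each counted intronic reads, was not tested.

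**Figure D5:**
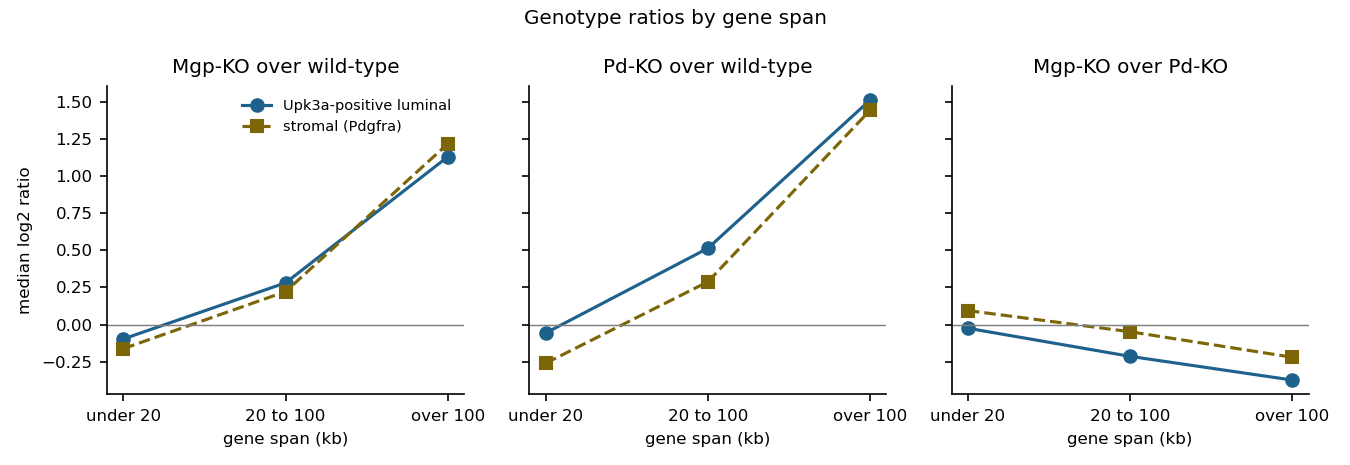
Median log2 ratio of CPM between libraries (y axis) for genes of 3 classes of span in kb (x axis), in *Upk3a*-positive luminal cells (solid) and stromal cells (dashed). Both ratios over wild-type rise with span in both kinds of cell, to 1.13 and 1.51 in *Upk3a*-positive cells, and *Mgp*-KO over *Pd*-KO falls to -0.37.

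The 10 genes with the highest smaller ratio spanned 204 to 1612 kb, and each was at least 2-fold higher in stromal cells too. *Nrxn3*, a neurexin of synapses, was 51.02, 1190.0 and 1278 CPM, and *Esrrg*, an orphan receptor related to the estrogen receptor, 2.49, 205 and 312 CPM. In stromal cells these were 0.632, 6.21 and 14.8 and 0.189, 3.69 and 5.33 CPM. Others were *Hs6st3*, *Camk1d*, *Zfp804b*, *2610307P16Rik*, *Nr6a1*, *Fhit* and *9530026P05Rik*. The receptor *Esr1*, which spans 394 kb, had log2 ratios of 2.25 and 2.84 in *Upk3a*-positive cells and 1.77 and 2.59 in stromal cells. *Prlr*, with 172 kb, had 0.60 (0.55 to 0.65) and 0.86 (0.79 to 0.93), where stromal cells had -0.83 and 0.25. Of 14 receptor genes 7 had at least 2-fold the wild-type level in *Pd*-KO and 3 in *Mgp*-KO cells, to be read beside the 21.5% and 13.1% of all genes. Among genes over 100 kb these shares were 70.7% and 55.03%, and the receptors were not compared with genes of like span.

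For hormone-sensing genes of shorter span the ratios were as follows. *Cited1* (span 4.80 kb) had log2 ratios over wild-type of -0.20 (-0.25 to -0.15) in *Mgp*-KO and -0.50 (-0.58 to -0.41) in *Pd*-KO, and *Ly6d* (1.56 kb) had -0.13 (-0.17 to -0.08) and -0.31 (-0.39 to -0.23). *Areg* (8.83 kb) was lower in both, at -0.29 (-0.34 to -0.24) and -0.87 (-0.97 to -0.77). *Krt19* (7.86 kb) had -0.51 (-0.54 to -0.48) and -0.19 (-0.24 to -0.14), and *Foxa1* (6.29 kb) 0.02 (-0.13 to 0.17) and 0.70 (0.49 to 0.90). The intervals cover counting error only, and these differences are of 1 pool against another.

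Lower in both knockouts by at least 2-fold were 142 genes, and 25 of them were so in stromal cells. Several of the 10 lowest rested on a few wild-type cells. The defensin *Defb50* had 376, 0 and 0 UMIs, all of them in 1 cell. The defensin *Defb1* had 442, 18 and 0 UMIs in 12, 4 and 0 cells, and *Sprr1a*, a cornified envelope protein, 353, 44 and 1 UMIs in 17, 6 and 1 cells. The highest wild-type cell held 65.2% of the *Defb1* and 63.2% of the *Sprr1a* UMIs there. *Ccl21a*, a lymphoid chemokine with near-identical copies, had 86.3% of its 262 wild-type UMIs in 1 cell. *Lpl*, the lipoprotein lipase of adipose tissue, was spread more widely, at 136, 12.2 and 11.2 CPM in 126, 23 and 7 cells, with 2619, 1374 and 1230.2 CPM in stromal cells. *Pcolce*, an enhancer of collagen processing, was at 89.6, 18.7 and 14.96 CPM in 124, 41 and 9 cells. *Ctla2a*, *Ifi27l2a* and *AY036118* were also among them. Of 8 fibroblast markers 5 and 7 were at least 2-fold lower in *Mgp*-KO and *Pd*-KO cells, against 2.10% and 3.84% of all genes. So were all 5 tested endothelial markers in both, with medians of -3.37 and -2.11, and 5 and 6 of 11 secretory luminal markers, with medians of -0.84 and -1.45. The part of RNA of other cells carried into the wild-type cells in these genes was not tested.

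Of 12 stress genes 3 were at least 2-fold higher and 2 lower in *Mgp*-KO over wild-type, beside 13.1% and 2.10% of all genes. In *Pd*-KO none was higher and 3 were lower, beside 21.5% and 3.84%. The heat shock gene *Hspa1a* had log2 ratios of -1.52 and -3.11 in *Upk3a*-positive cells and -0.54 and -3.58 in stromal cells. The immediate-early gene *Atf3* had 1.38 and -0.26.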

How the data were processed

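For this series, 3 10x single-cell RNA libraries, 1 per genotype, were deposited by the authors as unfiltered matrices of UMI counts over 32285 genes, not normalized. Reads had been aligned and counted with Cell Ranger. The submitters' processing notes name version 6.1.1 and the file headers 4 (wild-type) and 7.1.0 (both knockouts). The study's methods name version 6.1.1 at default parameters. The sources used here do not say by name whether intronic reads were counted in each library. The labels name GRCm39 and the study's methods mm10, so positions and spans here come from GENCODE M21 on GRCm38, matched by gene ID.

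Barcodes with at least 2000 UMIs and at most 10% mitochondrial UMIs were kept. No doublet caller was run. UMIs were summed per library and kind of cell, 6 sums per comparison, and tested with edgeR 4.0.16 (quasi-likelihood, TMM, filterByExpr, library as block) with Benjamini-Hochberg adjustment over all genes, in R 4.3.3. The 3 libraries were the replicates of these comparisons within a library. With the library as block, p-values measure how the difference between the kinds of cell varied over 3 pools of different genotype. The deviations of both kinds of cell from their means correlated within a library by 0.744, 0.424 and 0.450, and both kinds of cell came from the same pool. DESeq2 1.42.0 was an alternative. The pipeline was tested on simulated counts. Shares have exact Clopper-Pearson intervals, levels exact Poisson intervals and ratios exact conditional binomial intervals, at 95%. Stromal cells had at least 2 *Pdgfra* UMIs and no *Epcam* UMI. Cell counts were made with Python 3.11.15, NumPy 2.4.6, SciPy 1.17.1 and pandas 2.3.3.

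Named genes were the 20 highest and 10 lowest per comparison by the library ratio nearest to 0, among genes past the threshold with 1 sign in 3 libraries and at least 50 CPM, and between genotypes the 10 highest and 10 lowest by the smaller ratio of both knockouts. Genes of the lists of receptors and of luminal and basal markers could be named as well. The members of other lists that were called were named after their values were seen. The members, 25 gene lists and tests were chosen with earlier results of these data known. The number of cells that hold each named gene and the split of *Upk3a*-negative cells were added after values were seen. Some genes that these rules would name are not reported here.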

Additional observations from a re-analysis of the deposited data

How the results depend on the processing

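None of the 30 genes that the rule named in each comparison changed sign under the alternatives in which it was tested, but the balance of *Mgp*-KO over *Pd*-KO and the order of the libraries' shares did, as given below. Against *Upk3a*-negative luminal cells, DESeq2 called 135 genes higher and 334 lower, edgeR with no filter on low counts 673 higher, and edgeR on cells thinned to 2000 UMIs 131 higher and 226 lower. Without the replicate block that pairs the 2 kinds of cell of a library, 10 were higher and 63 lower. Leaving out each library gave 219 to 424 higher and 431 to 677 lower, with 219 without *Mgp*-KO. Against all other *Epcam*-positive cells, DESeq2 called 927 higher, the fit without the block 264 higher and 1348 lower, and thinned cells 562 higher and 924 lower. Leaving out each library gave 791 to 1063 higher and 2034 to 2149 lower, with 995 without *Mgp*-KO and 791 without *Pd*-KO. Of the 30 genes named in the closer comparison, 29 kept their call under DESeq2 (not *Fgb*) and 14 without the block, and all 30 kept it without any one library, with at least 5000 UMIs, with at least 2 *Upk3a* UMIs and without cells over percentile 95 of UMI counts.

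Genes at least 2-fold apart between genotypes depended on scaling and depth. Scaled by the median ratio, *Pd*-KO over wild-type gave 1312 higher and 594 lower and *Mgp*-KO over *Pd*-KO 345 higher and 250 lower, against 264 and 427 as reported. With cells thinned to 2000 UMIs, which leaves fewer genes with 50 UMIs, the counts were 361 higher and 38 lower (*Mgp*-KO over wild-type), 483 and 135 (*Pd*-KO over wild-type) and 102 and 89 (*Mgp*-KO over *Pd*-KO). With genes from 20 UMIs, 11242 genes were compared, and 384 (3.42%) were lower in *Mgp*-KO and 651 (5.79%) in *Pd*-KO than in wild-type. There *Mgp*-KO over *Pd*-KO gave 550 higher (4.89%) and 836 lower (7.44%). No paired analysis was possible because each genotype had 1 library.

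The share of *Upk3a*-positive cells was 21.7%, 36.5% and 40.7% of *Epcam*-positive cells and 3.61%, 3.40% and 1.74% of female-scored cells, in the opposite order. In *Mgp*-KO it was 3.13% of cells with at least 5000 UMIs and 1.95% with at least 2 *Upk3a* UMIs. After thinning, the female-scored share was 71.7% (wild-type) and 69.5% (*Mgp*-KO), and with at least 2 *Xist* UMIs 85.5% of *Mgp*-KO cells. Without thinning 14, 13 and 14 receptor genes were detected in at least 10% of cells. Leaving out cells with at least 2 UMIs of other cell types' markers could not be fitted, since it leaves no wild-type cell.

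The comparisons rest on 1 library per genotype and on 68 *Pd*-KO cells and 31 *Upk3a*-negative ones there. The cause of these shifts was not tested, beyond the smaller number of genes tested after thinning.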

Other observations

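Further lists of marker genes gave the following values. The 6 Schwann and neural crest genes summed to 146, 48.6 and 54.9 CPM in *Upk3a*-positive, 378, 162 and 234 CPM in *Upk3a*-negative luminal and 8842, 299.8 and 214 CPM in free RNA, and the wild-type library thus stood apart in its free RNA. All 3 genes of that list with enough UMIs to test, *Mbp*, *Sox10* and *Cryab*, were lower in *Upk3a*-positive cells by edgeR's quasi-likelihood test at an adjusted p under 0.05. In that fit 3.98% of all genes were higher and 6.14% lower, beside which the counts of this section stand. *Sox10* is also a gene of secretory luminal cells. Skin epithelial genes summed to 64.7, 66.1 and 31.2 CPM in *Upk3a*-positive, 65.4, 106 and 80.4 CPM in *Upk3a*-negative luminal and 60.04, 121 and 141 CPM in free RNA, and *Sbsn*, a suprabasal skin protein, was lower. Smooth muscle and pericyte genes summed to 115, 88.7 and 274 CPM in *Upk3a*-positive, 86.99, 140.0 and 172 CPM in *Upk3a*-negative luminal and 953, 430.1 and 567 CPM in free RNA, and none was called.

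Of 2 luminal keratins tested beside *Krt19*, *Krt7* was higher (0.49 ± 0.10 log2, adjusted p = 0.0068 by edgeR) and *Krt23* lower (-2.92 ± 0.49, adjusted p = 0.002 by edgeR). Among paracrine effectors of hormone-sensing cells, 3 genes were tested beside *Areg*. *Wnt5a* was higher, and *Cxcl12*, a chemokine, was lower (-1.81 ± 0.36 log2, adjusted p = 0.0063 by edgeR), with 21.4, 13.5 and 3.74 against 102.5, 16.99 and 61.3 CPM and 291, 349 and 236 CPM in stromal cells. *Tnfsf11*, which encodes the progesterone-driven ligand RANKL, had 6.47, 0.329 and 0 CPM in *Upk3a*-positive and 12.1, 0.586 and 0 CPM in *Upk3a*-negative cells.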
